A study of Mus musculus with 45 samples.

Results

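The enzymes that oxidise ethanol in the liver are encoded by a small set of genes, and 6 of them were followed across the series: the alcohol dehydrogenase genes Adh1, Adh4, Adh5 and Adh7, the cytochrome P450 gene Cyp2e1 and the catalase gene Cat. They were picked by name from a table of genes, and all 6 were found among the 24946 usable genes of the deposited table and passed the filter on low values. RNA was sequenced from lysates of whole liver from WT (wild-type) mice. They were fed a Lieber-DeCarli diet, a liquid feed used to model alcohol-associated liver disease, with or without ethanol. The 45 libraries were collected at 3 stages. Peak injury (P) followed 6 weeks of control or ethanol diet. In early resolution (ER) ethanol-fed animals had returned to control diet for 3 days, and in late resolution (LR) for 2 weeks. Labels for stage, diet (control C or ethanol E) and sex (female F or male M) define 12 groups, 9 of 4 libraries and 3 of 3 libraries. The groups of 3 are all ethanol-labelled: early females, late females and late males. The labels do not describe the earlier feeding of the control-labelled animals at the resolution stages. The sources used here give no ages. Nothing in the labels says that replicates are different animals, and p-values therefore measure only the spread between these libraries. Whole liver holds hepatocytes and other cells, so fewer cells of a type and less RNA per cell cannot be told apart.

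Hepatocytes clear ethanol in linked steps. Cytosolic alcohol dehydrogenase oxidises ethanol to acetaldehyde and passes the electrons to NAD+, the microsomal enzyme CYP2E1 does so with oxygen and NADPH, and peroxisomal catalase can use hydrogen peroxide. Mitochondrial aldehyde dehydrogenase then makes acetate. CYP2E1 is concentrated in hepatocytes around the central vein, and its protein is known to be stabilised by ethanol, so its messenger RNA does not have to follow its amount.

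Values are in TPM, an abundance per transcript length scaled to the same total in each library, so levels of different genes can be compared but sequencing depth is unknown. Differences are on the log2(TPM + 0.5) scale, ethanol-labelled minus control-labelled or male-labelled minus female-labelled. Each comes from limma, a linear model fitted to 11244 genes, with p-values adjusted by Benjamini-Hochberg over all of them. Genes with an adjusted p below 0.05 are called.

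The 4 dehydrogenase genes lie in a cluster on the plus strand of chromosome 3 (mm10, GENCODE M21). In order along the chromosome they are Adh7 at 138217760 to 138233382, Adh1 at 138260991 to 138290698, Adh4 at 138415466 to 138430892 and Adh5 at 138443093 to 138455499. Cyp2e1 lies on the plus strand of chromosome 7 (140763739 to 140774987) and Cat on the minus strand of chromosome 2 (103453849 to 103485160). All are annotated as protein coding. Their upstream sequences are shown because neighbours in 1 cluster differed by orders of magnitude in level and in the direction of their differences. Each is the 120 bases (RefSeq, GRCm38.p6) that end before the annotated exon at a RefSeq start site, on the gene's own strand. The window of Adh1 lies inside the GENCODE gene, which starts further upstream at 138260991. That of Adh7 lies inside the RefSeq gene, which starts further upstream at 138198064. Sequences before those earlier starts are not shown. Capitals mark matches on either strand to any of 4 motifs. They are the CCAAT box, the GC box with the letters GGGCGG, and the core of the TATA box, TATAAA. The last is a pattern of C/EBP factors, TTNCNNAA.
Adh7, chr3:138217640-138217759: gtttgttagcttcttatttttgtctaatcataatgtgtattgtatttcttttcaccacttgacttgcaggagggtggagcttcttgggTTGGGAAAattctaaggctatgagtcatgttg
Adh1, chr3:138277374-138277493: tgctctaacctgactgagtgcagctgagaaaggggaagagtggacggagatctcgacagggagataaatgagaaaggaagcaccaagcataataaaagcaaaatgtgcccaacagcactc
Adh4, chr3:138415336-138415455: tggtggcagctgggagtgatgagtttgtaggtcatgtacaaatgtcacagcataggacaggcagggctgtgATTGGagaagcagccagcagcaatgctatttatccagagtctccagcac
Adh5, upstream start, chr3:138437080-138437199: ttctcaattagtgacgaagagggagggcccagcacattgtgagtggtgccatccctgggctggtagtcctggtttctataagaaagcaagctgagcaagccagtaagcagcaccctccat
Adh5, downstream start, chr3:138442973-138443092: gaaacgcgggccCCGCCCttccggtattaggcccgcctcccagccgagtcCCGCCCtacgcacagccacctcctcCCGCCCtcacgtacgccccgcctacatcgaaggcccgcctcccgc
Cyp2e1, chr7:140763619-140763738: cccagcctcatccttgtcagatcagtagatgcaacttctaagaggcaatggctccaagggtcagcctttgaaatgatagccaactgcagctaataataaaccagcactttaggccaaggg
Cat, chr2:103485161-103485280, minus strand: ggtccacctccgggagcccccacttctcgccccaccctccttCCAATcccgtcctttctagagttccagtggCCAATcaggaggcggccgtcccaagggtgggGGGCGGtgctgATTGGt

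The windows fall into 2 kinds by base composition. The downstream Adh5 start had 73.3% G and C with 15 CG pairs, and Cat had 65.8% with 6, against a median of 55% and 3 CG pairs over 32446 RefSeq promoters of this length. Adh7 had 37.5% with 0 CG pairs, Adh1 47.5% with 2, Cyp2e1 47.5% with 0 and Adh4 50.8% with 0. The GC box matched at 3 places at the downstream Adh5 start and at 1 in Cat. CCAAT matched at 3 places in Cat and 1 in Adh4, and the C/EBP pattern at 1 in Adh7. Over all promoters GGGCGG occurred in 26.7%, CCAAT in 21.2%, TTNCNNAA in 17.9% and TATAAA in 6.33%. Those promoters were taken as the 120 bases directly before the start site, so positions differ from some windows shown. The window of Adh1 lay 211 to 92 bases before its start site, that of Cyp2e1 200 to 81 and that of Adh4 161 to 42. Bases between these windows and the start site were not searched, so the shares do not apply to them directly. The windows of Adh1, Cyp2e1 and the upstream Adh5 start held none of these letters, which says nothing about the factors that bind there.

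Before any group is compared, the labels have to be set against the sex-chromosome transcripts. Xist, which is made in female cells, stood between 13.7 and 51.8 TPM in 21 of 21 ethanol-labelled libraries, whatever their sex label, and did not exceed 0.349 TPM in 23 of the 24 libraries with a control label. Ddx3y on the Y chromosome showed the reverse, at 1.98 to 6.18 TPM in the same 23 control-labelled libraries and at or under 0.0125 TPM in the ethanol-labelled ones. Late control female 1 was the exception, with Xist at 39.5 TPM and Ddx3y listed at 0. In 22 of 45 libraries these transcripts went against the sex label, 11 labelled female and 11 labelled male. Every diet-label difference below therefore goes together with a difference in these transcripts, and diet and sex cannot be told apart in it. Of 13 liver genes known to be higher in females all 13 were called higher in ethanol-labelled libraries at peak, where 17.3% of all genes were. Of 13 male-biased genes 12 were called lower, where 9.81% of all genes were. The major urinary protein (Mup) genes took a median of 9.82% of TPM in control-labelled libraries and 0.321% in ethanol-labelled ones. Groups were kept as labelled. Males and females below therefore mean male-labelled and female-labelled libraries, not sexes read from these transcripts.

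Cyp2e1 was among the most abundant transcripts of every library, between rank 4 and rank 24, and alone made up 0.817% to 1.53% of TPM with a median of 1.13%. Its level ran from 8172 to 15321 TPM (median 11350). Adh1, the classical liver dehydrogenase, followed at 2338 to 8424 TPM (median 4536), and Cat, which degrades hydrogen peroxide, at 767 to 2334 TPM (median 1511). Adh5, which encodes the glutathione-dependent formaldehyde dehydrogenase found in most cells, lay at 382 to 688 TPM (median 491). The range of Adh5, with a highest value 1.80 times the lowest, was the narrowest of the 6 genes. Adh4, a dehydrogenase that also acts on retinol, stood at 30.7 to 270 TPM (median 130) and had the widest range, 8.80 times. Adh7, whose enzyme is known mainly from the stomach and oesophagus, was at 0.482 to 2.71 TPM (median 1.29). Together the 6 genes took 1.33% to 2.34% of TPM. Reads could be shared with other genes. Of the 31-base stretches, 1.98% of those of Adh1, 5.83% of Cyp2e1, 1.32% of Adh5 and 0.414% of Adh4 also occur in other genes. For Adh1 and Adh4 those genes include Adh6-ps1. The antisense gene Gm16559, which shares 136 exon bases with Adh1, was not analysed here. Of the remaining dehydrogenase genes of the cluster, Adh6a did not exceed 0.220 TPM and was not tested, and Adh6b was not analysed here.

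**Figure D1:**
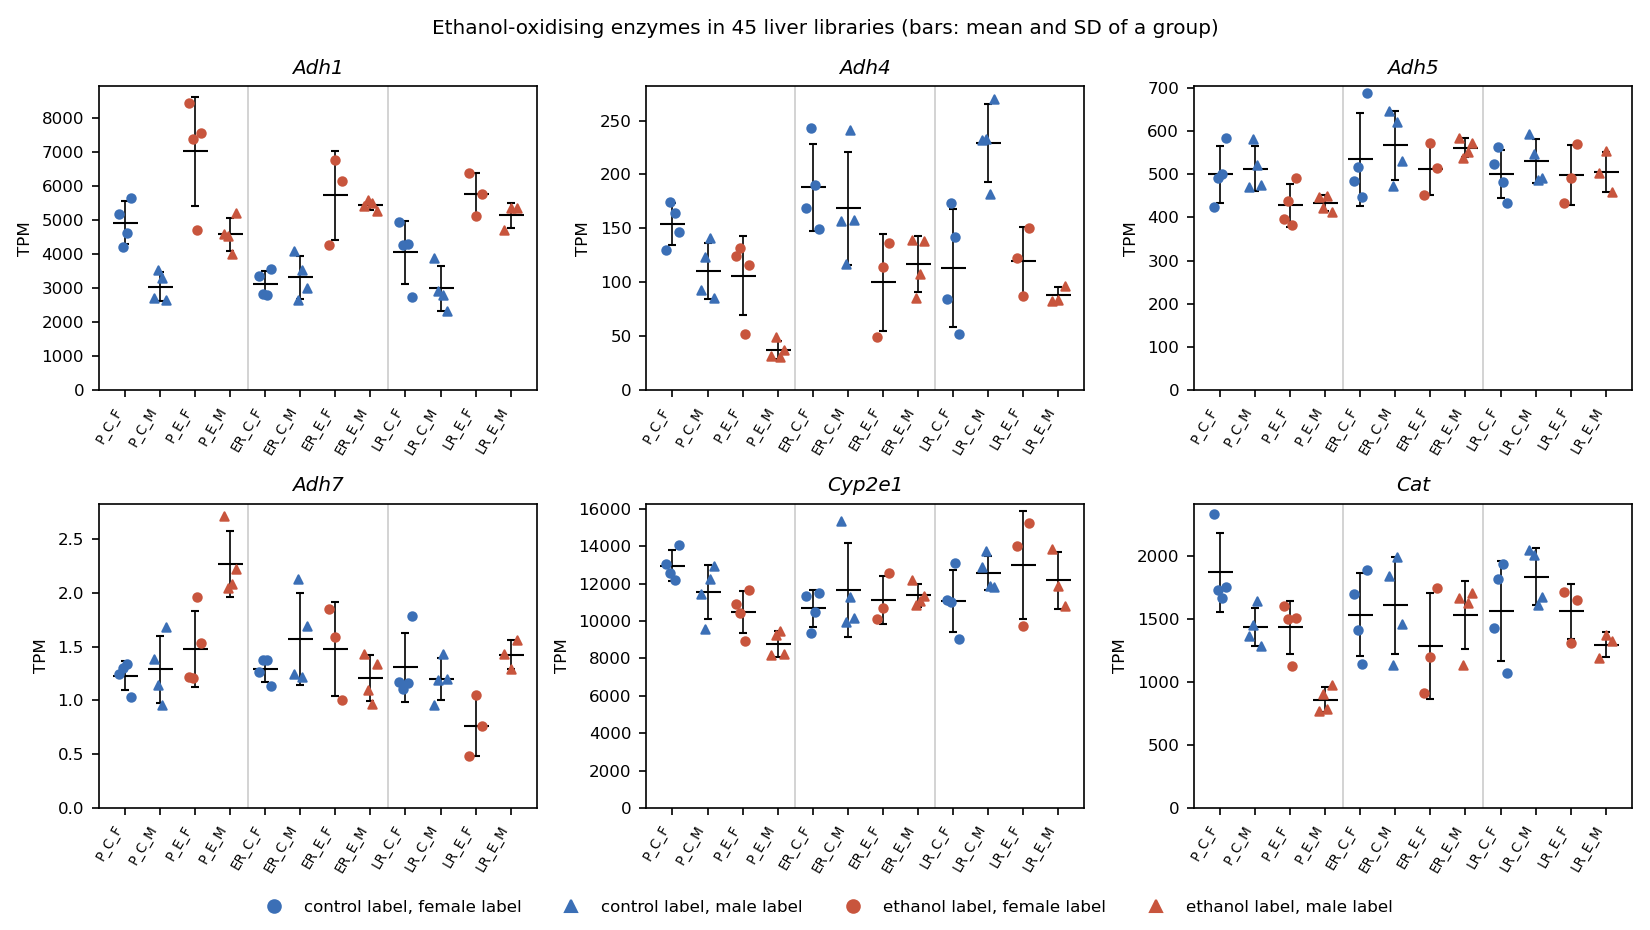
TPM of the 6 genes in each library (y axis, from 0) over the 12 groups of stage, diet and sex label (x axis, for example P_E_M for peak, ethanol label, male label), with the mean and SD of each group of 3 or 4 libraries. Adh1 was higher in ethanol-labelled libraries at each stage, and Adh4, Cyp2e1 and Cat were lowest in ethanol-labelled males at peak.

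When the 12 groups were ordered by mean, the libraries of neighbouring groups overlapped in 11 of 11 pairs for 5 of the genes and in 10 of 11 for Adh4. Adh1 ran from 7014 ± 1606 TPM (SD, n = 4) in peak ethanol-labelled females to 2989 ± 647 TPM (SD, n = 4) in late control-labelled males. The 5 highest groups of Adh1 were ethanol-labelled. Adh4 was highest in late control-labelled males, at 229 ± 36.1 TPM (SD, n = 4), and lowest in peak ethanol-labelled males, at 37.1 ± 8.49 TPM (SD, n = 4). That lowest group was the one that did not overlap its neighbour. Peak ethanol-labelled males were also lowest for Cyp2e1 (8770 ± 672 TPM, SD, n = 4) and Cat (859 ± 98.7 TPM, SD, n = 4), and highest for Adh7 (2.26 ± 0.307 TPM, SD, n = 4).

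At peak all 6 genes differed by diet label, 2 higher and 4 lower in ethanol-labelled libraries, where 27.1% of all genes were called. By direction, 17.3% of genes were called higher and 9.81% lower. The median difference of the 6 was -0.29 against 0.05 over all genes. The enzymes of ethanol oxidation thus did not move in 1 direction. The share of called genes that were higher depended on scaling, 63.8% as deposited and 42.1% after median-of-ratios scaling, which sets the typical gene equal between libraries.

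Adh1 at peak read 5183, 4213, 4628 and 5650 TPM in control-labelled females and 8424, 7369, 4706 and 7557 TPM in ethanol-labelled females. In control-labelled males it read 2715, 3520, 3290 and 2651 TPM, and in ethanol-labelled males 4598, 4536, 4000 and 5191 TPM. Within each sex label the ethanol-labelled libraries were higher, apart from peak ethanol female 3, which lay inside the control range. Across both sex labels the groups overlapped, since control-labelled females reached the level of ethanol-labelled males. The difference was 0.54 ± 0.12 (SE, limma adjusted p = 0.0013), and 7 of 8 ethanol-labelled libraries lay above the control mean of their sex label.

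Adh4 moved the opposite way, although its start lies in the same gene cluster. At peak it read 130, 174, 165 and 147 TPM in control-labelled females and 124, 132, 52.4 and 116 TPM in ethanol-labelled females. Control-labelled males had 93.1, 124, 141 and 85.5 TPM, and ethanol-labelled males 31.4, 49.0, 30.7 and 37.4 TPM. All 4 ethanol-labelled males lay below every control-labelled library of that stage, and among ethanol-labelled females only peak ethanol female 3 did. The difference was -1.09 ± 0.21 (SE, limma adjusted p = 0.00023), in 8 of 8 libraries.

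Cyp2e1 was lower, not higher, in ethanol-labelled livers at peak. Control-labelled females had 13027, 12541, 12169 and 14068 TPM, and ethanol-labelled females 10888, 10444, 8930 and 11653 TPM. Control-labelled males had 11435, 9567, 12232 and 12930 TPM, and ethanol-labelled males 8172, 9245, 9450 and 8214 TPM. The groups did not overlap within either sex label. The difference was -0.35 ± 0.10 (SE, limma adjusted p = 0.0065), in 8 of 8 libraries, and it was -0.08 (adjusted p = 0.71) with quantile normalization.

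Cat was lower as well. Control-labelled females had 2334, 1727, 1667 and 1750 TPM, and ethanol-labelled females 1602, 1499, 1126 and 1511 TPM. Control-labelled males had 1367, 1455, 1639 and 1286 TPM, and ethanol-labelled males 767, 906, 787 and 974 TPM. Here too the groups did not overlap within a sex label. The difference was -0.56 ± 0.14 (SE, limma adjusted p = 0.0021), in 8 of 8 libraries.

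Adh5 and Adh7 differed in opposite directions. Adh5 ranged from 424 to 583 TPM in the 8 control-labelled libraries (median 495) and from 382 to 491 TPM in the 8 ethanol-labelled ones (median 430). The groups overlapped, with 4 of 8 ethanol-labelled libraries below every control. Its difference of -0.23 ± 0.09 (SE, limma adjusted p = 0.047) was lost when any of 12 single libraries was left out (adjusted p up to 0.11). The Adh5 difference was -0.32 (limma adjusted p = 0.0024) after median-of-ratios scaling. Adh7 ranged from 0.961 to 1.68 TPM with control labels (median 1.27) and from 1.21 to 2.71 TPM with ethanol labels (median 2.00). All 4 ethanol-labelled males, at 2.71, 2.05, 2.08 and 2.22 TPM, and 1 ethanol-labelled female stood above every control. Its difference was 0.41 ± 0.11 (SE, limma adjusted p = 0.0064), in 6 of 8 libraries. After median-of-ratios scaling it was 0.36 (adjusted p = 0.057).

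Adh7 is near the floor of what was measured, and 108 bases of its exons overlap the antisense gene 0610031O16Rik. The library kit keeps strand, but whether the authors' counting used it is not given in the sources used here, so part of the Adh7 value may belong to the antisense gene. That gene stood at 7.42 to 29.0 TPM (median 15.3), and its own diet-label difference at peak was -0.14 ± 0.18 (SE, limma adjusted p = 0.59). Of 6 markers of stomach and oesophagus epithelium none passed the filter, their sum reached at most 1.37 TPM in any library, and Krt13 and Muc5ac stayed under 0.1 TPM in all of them. At peak that sum lay at 0 to 0.317 TPM (median 0.141) with control labels and at 0 to 1.37 TPM (median 0.201) with ethanol labels.

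**Figure D2:**
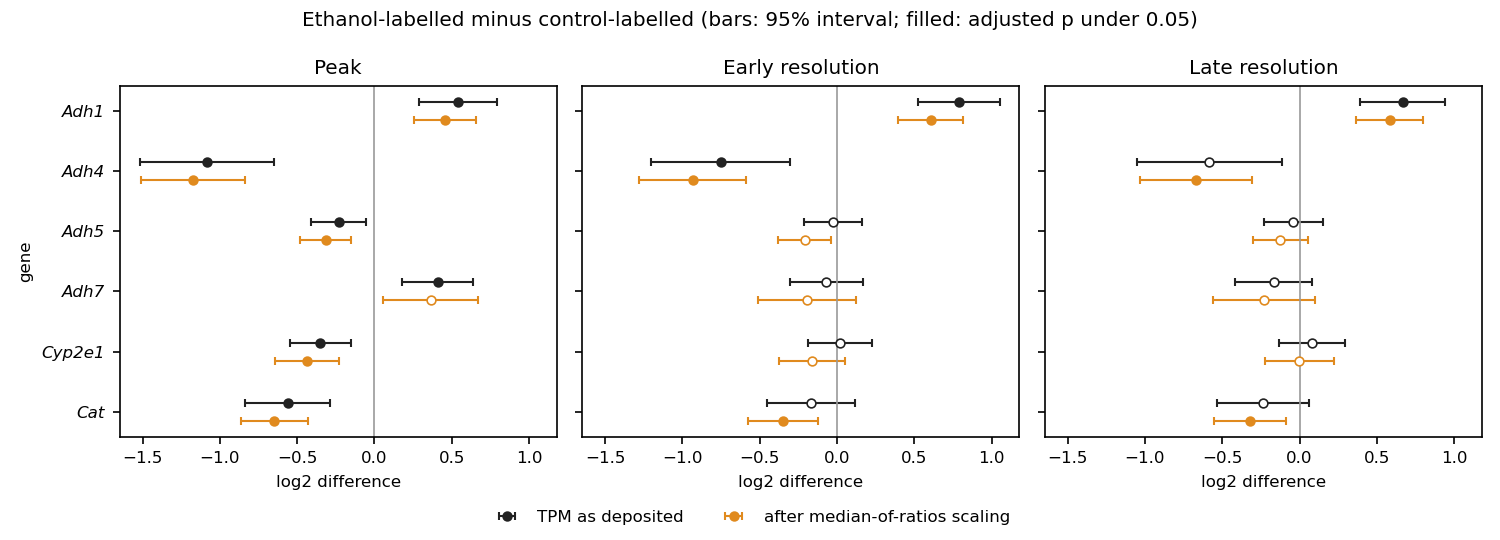
Log2 difference of each gene (rows) between ethanol-labelled and control-labelled libraries at the 3 stages (panels), as deposited in black and after median-of-ratios scaling in orange, with 95% intervals and filled points where the adjusted p was under 0.05. Adh1 stayed between 0.54 and 0.79 as deposited, while Cyp2e1 was at -0.35 at peak and at 0.02 and 0.08 later.

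Within sex labels, 5 of 6 genes passed the test at peak in male-labelled libraries, where 23.4% of all genes were called, and 0 of 6 in female-labelled ones, where 6.65% were. In female-labelled libraries 2 of the 6 (Adh1 and Cyp2e1) had an unadjusted p under 0.05. After median-of-ratios scaling Adh4, Cyp2e1, Cat and Adh5 passed in females, with Adh1 at 0.28 (adjusted p = 0.24). In males Cyp2e1 then lost its call (-0.35, adjusted p = 0.054), and Adh5 passed under neither scaling. Adh4 differed by -1.56 ± 0.30 (SE, limma adjusted p = 0.00026) in male-labelled and -0.61 ± 0.30 (SE, adjusted p = 0.24) in female-labelled libraries. For Cat the values were -0.74 ± 0.19 (SE, limma adjusted p = 0.0048) and -0.38 ± 0.19 (SE, adjusted p = 0.25). For Adh1 they were 0.59 ± 0.18 (SE, limma adjusted p = 0.013) and 0.49 ± 0.18 (SE, adjusted p = 0.090). The difference between the sex labels was tested as an interaction and no gene of the 6 passed at any stage (limma adjusted p from 0.24 upward). The interactions called 0.16%, 0.00889% and 0.0445% of all genes at peak, early and late resolution. With an unadjusted p under 0.05 there were 1 of 6 at peak (Adh4, -0.95), 0 at early and 2 at late resolution (Adh4, -1.56, and Adh7, 0.71).

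At early resolution, after 3 days on control diet, only Adh1 and Adh4 of the 6 differed by diet label as deposited, with 16.7% of all genes called (14.3% higher and 2.46% lower). Adh1 read 3347, 2820, 2811 and 3557 TPM in control-labelled females and 4256, 6773 and 6145 TPM in ethanol-labelled females. It read 4093, 2647, 3536 and 3009 TPM in control-labelled males and 5401, 5577, 5486 and 5261 TPM in ethanol-labelled males. Within sex labels Adh1 was called in both, at 0.85 ± 0.19 (SE, limma adjusted p = 0.0044) in females, where 3.92% of all genes were called, and at 0.73 ± 0.18 (SE, adjusted p = 0.0064) in males, where 8.39% were. The diet labels did not overlap, since the lowest ethanol-labelled library, at 4256 TPM, lay above the highest control at 4093 TPM. The difference was 0.79 ± 0.13 (SE, limma adjusted p = 3.2e-05). The median of all genes lay 0.13 higher in ethanol-labelled libraries at this stage, and after median-of-ratios scaling, which puts that median at -0.03, the Adh1 difference was 0.61 (adjusted p = 5.6e-05). The share of called genes that were higher was 85.3% as deposited and 45.5% after scaling.

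Adh4 at early resolution read 169, 243, 190 and 150 TPM in control-labelled females and 49.7, 114 and 136 TPM in ethanol-labelled females. Control-labelled males had 157, 117, 242 and 158 TPM, and ethanol-labelled males 139, 85.2, 107 and 138 TPM. The groups overlapped among male-labelled libraries and not among female-labelled ones. The difference of -0.75 ± 0.22 (SE, limma adjusted p = 0.017), in 7 of 7 libraries, was -0.53 (adjusted p = 0.067) without early ethanol female 1, the library at 49.7 TPM. The remaining genes lay closer to 0 as deposited, Cat at -0.17 ± 0.14, Adh7 at -0.07 ± 0.12, Adh5 at -0.03 ± 0.09 and Cyp2e1 at 0.02 ± 0.10 (SE, limma adjusted p from 0.46 to 0.93). Relative to the all-gene shift, Cat was called at -0.35 (adjusted p = 0.027), and Cyp2e1 turned to -0.16 (adjusted p = 0.31), while with quantile normalization it was called at 0.51 (adjusted p = 0.029).

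The Cyp2e1 libraries at early resolution overlapped throughout. Control-labelled libraries ranged from 9365 to 15321 TPM (median 10881) and ethanol-labelled ones from 10098 to 12567 TPM (median 11053). For Cat the control-labelled range was 1137 to 1991 TPM (median 1579) and the ethanol-labelled range 912 to 1746 TPM (median 1626). Early ethanol female 1 was the lowest library of the stage for Cat as well as for Adh4.

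After 2 weeks back on control diet, at late resolution, 1 of the 6 genes was called as deposited, with 12.8% of all genes called (8.82% higher and 3.98% lower). The share higher was 68.9% as deposited and 40.6% after scaling. Adh1 read 4931, 4262, 4280 and 2745 TPM in control-labelled females and 6372, 5114 and 5771 TPM in ethanol-labelled females. It read 3882, 2928, 2808 and 2338 TPM in control-labelled males and 4714, 5347 and 5340 TPM in ethanol-labelled males. A single control reached into the ethanol-labelled range, late control female 1, whose sex-chromosome transcripts match those of the ethanol-labelled libraries. The difference was 0.67 ± 0.13 (SE, limma adjusted p = 0.00073), in 6 of 6 libraries, and single libraries left out moved it between 0.58 and 0.73.

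Adh4 at late resolution was read within each sex label, although the interaction did not pass (adjusted p = 0.24). Control-labelled females had 85.0, 173, 142 and 52.1 TPM, and ethanol-labelled females 122, 87.6 and 150 TPM. Control-labelled males had 232, 233, 182 and 270 TPM, and ethanol-labelled males 83.1, 83.8 and 96.9 TPM. The male-labelled libraries stood far apart by diet label while the female-labelled ones overlapped fully. In male-labelled libraries the difference was -1.37 ± 0.33 (SE, limma adjusted p = 0.0069, 6.44% of all genes called). In female-labelled ones it was 0.20 ± 0.33 (SE, adjusted p = 0.77, 2.46% called). Averaged over both it was -0.58 ± 0.23 (SE, limma adjusted p = 0.088), which became a call at -0.67 (adjusted p = 0.0077) after median-of-ratios scaling and at -0.75 (adjusted p = 0.027) without late control female 4, the library at 52.1 TPM.

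Cat, Cyp2e1, Adh5 and Adh7 had no call at late resolution as deposited. Cat differed by -0.24 ± 0.15 (SE, limma adjusted p = 0.29) and was called at -0.32 (adjusted p = 0.046) after scaling. Cyp2e1 lay at 9029 to 13714 TPM with control labels (median 11835) and 9710 to 15213 TPM with ethanol labels (median 12855), a difference of 0.08 ± 0.10 (SE, limma adjusted p = 0.63). Adh7 in ethanol-labelled females, at 0.482, 1.05 and 0.761 TPM, was below all 4 control-labelled females, at 1.17, 1.11, 1.16 and 1.79 TPM, yet this did not pass the test (-0.52, limma adjusted p = 0.095).

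Late control female 1 can be set beside its group gene by gene. Its Adh1 of 4931 TPM was above the other 7 late controls, which reached 4280 TPM, and inside the ethanol-labelled range of 4714 to 6372 TPM. For Adh4, at 85.0 TPM, and Cat, at 1425 TPM, it lay inside both the range of the other controls (52.1 to 270 and 1074 to 2050 TPM) and that of the ethanol-labelled libraries (83.1 to 150 and 1189 to 1717 TPM). Its Adh5 of 522 TPM, Adh7 of 1.17 TPM and Cyp2e1 of 11128 TPM were likewise inside both ranges. Without this library the late Adh1 difference in female-labelled libraries was 0.64 and passed the test, against 0.53 (limma adjusted p = 0.13) with it.

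Whether a diet-label difference changed between stages was tested directly. From peak to late resolution, Adh7 changed by -0.58 ± 0.17 (SE, limma adjusted p = 0.041), with 3.98% of all genes called, as its difference went from 0.41 to -0.17. After median-of-ratios scaling the change was -0.59 (adjusted p = 0.069). The Cyp2e1 value was 0.43 ± 0.14 (SE, limma adjusted p = 0.067), which did not pass. From peak to early resolution no gene of the 6 passed, nor did any of the 11244 (0% called, limma), while 1879 genes had an unadjusted p under 0.05, among them Adh7 (-0.48) and Cyp2e1 (0.37). For Adh1 the interval of the change was -0.12 to 0.61 from peak to early and -0.25 to 0.50 from peak to late resolution.

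Within a diet label, stages could be compared too, although stage may hold differences of age and handling. In ethanol-labelled libraries Adh4 was higher than at peak by 0.76 ± 0.22 (SE, limma adjusted p = 0.012) at early and 0.74 ± 0.23 (SE, adjusted p = 0.020) at late resolution. Adh7 was lower by -0.35 ± 0.12 (SE, limma adjusted p = 0.026) and -0.59 ± 0.12 (SE, adjusted p = 0.0011). Adh5 was higher at early resolution by 0.32 ± 0.09 (SE, limma adjusted p = 0.011) and Cyp2e1 at late resolution by 0.38 ± 0.10 (SE, adjusted p = 0.0095). Thus 3 of 6 genes were called at early resolution, where 26.5% of all genes were, and 3 of 6 at late resolution, where 22% were. After median-of-ratios scaling the calls of Adh4 and Adh7 remained, and Adh5 (0.12, adjusted p = 0.31) and Cyp2e1 (0.20, adjusted p = 0.17) were not called. Adh1 stood at -0.02 ± 0.13 and -0.05 ± 0.13 (SE) as deposited, and at -0.22 ± 0.10 and -0.22 ± 0.11 (SE, adjusted p = 0.11 and 0.13) after scaling, and was called under neither.

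In control-labelled libraries 0 of 6 genes were called between stages by limma, with 0.729% of all genes called at early and 0.676% at late resolution. With an unadjusted p under 0.05 there was 1 of 6 at early resolution, Adh1 at -0.27 ± 0.12 (SE, adjusted p = 0.37), and 0 at late resolution. Adh1 at early resolution was called at -0.37 (adjusted p = 0.038) after scaling.

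The male-labelled and female-labelled livers were compared as labelled, bearing in mind that these labels did not separate the sex-chromosome transcripts. At peak 51% of all genes were called, 4.26% higher and 46.7% lower in male-labelled libraries, and the median of all genes was -0.29. The scaling factors of the peak libraries split by the same label, from 0.925 to 1.25 in female-labelled and from 0.762 to 0.907 in male-labelled ones, so values relative to that shift are given beside those as deposited. The share higher was 8.36% as deposited and 51.1% after scaling.

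Against that background 4 of 6 genes were called as deposited, 1 higher and 3 lower. Adh1 was lower in male-labelled libraries by -0.64 ± 0.12 (SE, limma adjusted p = 0.00018), in 8 of 8, and by -0.29 (adjusted p = 0.026) relative to the shift. Adh4 was lower by -0.97 ± 0.21 (SE, limma adjusted p = 0.00059), in 8 of 8, and by -0.62 (adjusted p = 0.0048) relative to the shift. Adh7 was higher by 0.27 ± 0.11 (SE, limma adjusted p = 0.047) as deposited and by 0.54 (adjusted p = 0.0070) relative to the shift. These 3 kept their direction and their call under both scalings. The Adh7 call as deposited was lost when any of 12 single libraries was left out (adjusted p up to 0.12).

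The remaining 3 genes depended on the scaling. Cat was at -0.55 ± 0.14 (SE, limma adjusted p = 0.0015) as deposited and -0.20 (adjusted p = 0.15) relative to the shift. Adh5 was at 0.03 ± 0.09 (SE, limma adjusted p = 0.78) and 0.38 (adjusted p = 0.00065). Cyp2e1 was at -0.21 ± 0.10 (SE, limma adjusted p = 0.063) and 0.14 (adjusted p = 0.30). Adh5 as deposited stayed level between the sex labels (female-labelled median 465, male-labelled 460 TPM) while the typical gene was lower in male-labelled libraries.

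**Figure D3:**
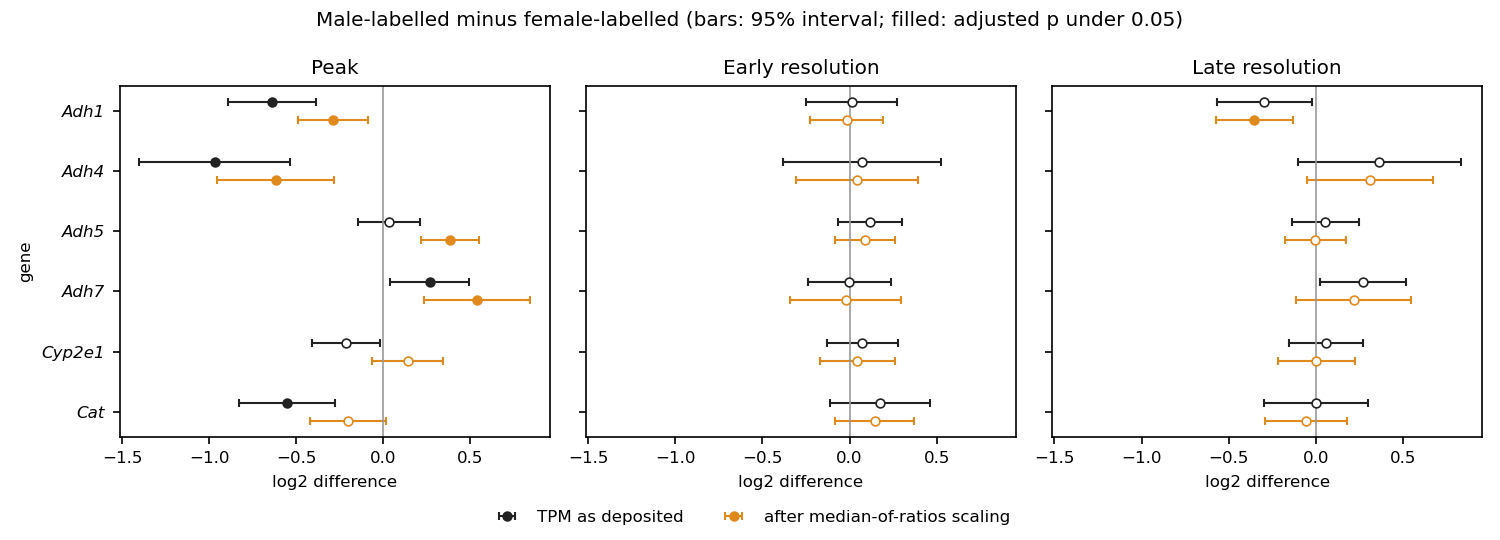
Log2 difference of each gene (rows) between male-labelled and female-labelled libraries at the 3 stages (panels), as deposited in black and after median-of-ratios scaling in orange, with 95% intervals and filled points where the adjusted p was under 0.05. At peak Adh1 and Adh4 were below 0 and Adh7 above 0 under both scalings, and Adh5 and Cyp2e1 moved with the scaling.

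The sex-label difference at peak was also taken within each diet label. In control-labelled libraries, where 2.9% of genes were called, Adh1 was the 1 gene called, at -0.69 ± 0.18 (SE, limma adjusted p = 0.023). In ethanol-labelled libraries, where 49.4% were called, 4 of 6 were, Adh4 at -1.44 ± 0.30 (SE, limma adjusted p = 0.00047), Cat at -0.73 ± 0.19 (SE, adjusted p = 0.0028), Adh1 at -0.59 ± 0.18 (SE, adjusted p = 0.0073) and Adh7 at 0.49 ± 0.16 (SE, adjusted p = 0.012). After scaling Adh1 was called in neither (-0.46, adjusted p = 0.062, and -0.11, adjusted p = 0.56). In ethanol-labelled libraries Cat then lost its call (-0.26, adjusted p = 0.19) and Adh5 gained one (0.50, adjusted p = 0.0017), beside those of Adh4 and Adh7. The interaction, given above, did not pass for any of them.

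By early resolution the sex-label differences of these genes were close to 0. None of the 6 was called by limma (adjusted p from 0.61 to 1.00, 0.596% of all genes called, 0 of 6 at an unadjusted p under 0.05), and Adh1 stood at 0.01 ± 0.13 and Adh4 at 0.07 ± 0.22 (SE). At late resolution 0 of 6 were called, with 3.25% of all genes called and 2 of 6 (Adh1 and Adh7) at an unadjusted p under 0.05. Adh1 was at -0.30 ± 0.13 (SE, limma adjusted p = 0.17) and was called after scaling (-0.35, adjusted p = 0.036).

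The change of the sex-label difference between stages was a comparison added after the data were seen. From peak to early resolution it was called for Adh1 (0.65 ± 0.18), Cat (0.73 ± 0.20) and Adh4 (1.04 ± 0.31, SE, limma adjusted p = 0.0083, 0.0075 and 0.013), with 31.9% of all genes called, and for none of them after scaling (adjusted p from 0.052). From peak to late resolution it was called for Adh4 (1.33 ± 0.31, SE, limma adjusted p = 0.0026) and Cat (0.55 ± 0.20, SE, adjusted p = 0.030), with 36.5% of all genes called. After scaling Adh4 kept its call at 0.93 (adjusted p = 0.0087), Cat did not (0.15, adjusted p = 0.52), and Adh5 gained one (-0.38, adjusted p = 0.021).

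A ratio of 2 transcripts in the same library does not depend on how that library was scaled, so each gene was also set against Adh5, the gene with the narrowest range. Diet labels were exchanged within each sex label in an exact two-sided permutation test, and p-values were adjusted over 5 ratios and 3 stages. The log2 ratio of Adh1 to Adh5 rose from 2.93 ± 0.42 (SD, n = 8) in control-labelled to 3.71 ± 0.41 (SD, n = 8) in ethanol-labelled libraries at peak. The stratified difference was 0.77 at peak, 0.82 at early and 0.71 at late resolution (exact permutation, adjusted p = 0.0031 at each). Adh5 itself was lower in ethanol-labelled libraries at peak (-0.23 ± 0.09, SE, limma adjusted p = 0.047), and this enters each ratio at that stage. The size and the later calls depended on the denominator. With Alb, the albumin gene, in place of Adh5, the Adh1 differences were 0.26, 0.087 and 0.033 (exact permutation, adjusted p = 0.030, 0.57 and 0.75). Alb itself was higher in ethanol-labelled libraries at early (0.70 ± 0.14, SE, limma adjusted p = 0.00043) and late resolution (0.63 ± 0.14, SE, adjusted p = 0.0027). At early resolution the 2 sets of ratios to Adh5 did not overlap, at 2.55 ± 0.14 (SD, n = 8) against 3.36 ± 0.16 (SD, n = 7).

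Adh4 relative to Adh5 was lower in ethanol-labelled libraries by -0.86 at peak (exact permutation, adjusted p = 0.0086) and -0.73 at early resolution (adjusted p = 0.018), and at -0.55 (adjusted p = 0.21) at late resolution. For Adh7 the ratio was higher by 0.77 at peak (exact permutation, adjusted p = 0.0031) and at -0.07 and -0.24 later (adjusted p = 0.76 and 0.48). Cyp2e1 relative to Adh5 did not pass at any stage (-0.12, 0.05 and 0.12, exact permutation, adjusted p = 0.34, 0.69 and 0.39). Cat relative to Adh5 was at -0.33 at peak (exact permutation, adjusted p = 0.058). At peak Cyp2e1 and Cat were thus lower in TPM together with Adh5, and their ratio to Adh5 did not pass the test. Against Alb both were called at every stage, Cyp2e1 at -0.63, -0.68 and -0.55 (exact permutation, adjusted p = 0.0012, 0.0020 and 0.012) and Cat at -0.85, -0.87 and -0.87 (adjusted p = 0.0012, 0.0012 and 0.0087). Against Alb Adh7 was at 0.25 at peak (exact permutation, adjusted p = 0.21) and called at -0.80 and -0.91 later (adjusted p = 0.035 and 0.012). Adh4 was lower against Alb at each stage (-1.38, -1.46 and -1.22, exact permutation, adjusted p = 0.0012, 0.0012 and 0.021).

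**Figure D4:**
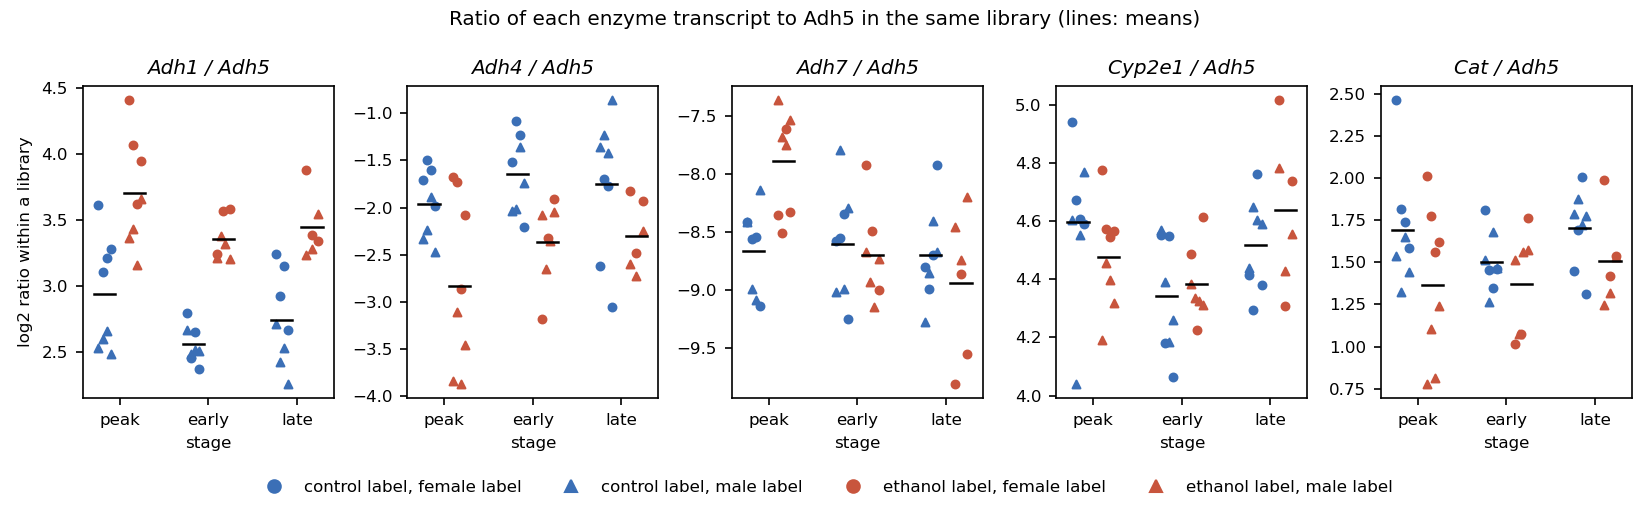
Log2 ratio of 5 genes to Adh5 within each library (y axes differ by panel and do not start at 0) by stage (x axis), coloured by diet label and shaped by sex label, with horizontal lines at the means. The Adh1 ratio was higher in ethanol-labelled libraries at all 3 stages and did not overlap at early resolution.

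After the group means were removed, the genes other than Adh7 moved together from library to library. Pearson's r of log2(TPM + 0.5) was then 0.69 between Adh1 and Cat, 0.68 between Adh4 and Cat, 0.57 between Cyp2e1 and Cat and 0.57 between Adh1 and Adh5. Adh7 ran against the others, with r = -0.72 to Adh1 and -0.71 to Cat. With group means included, Adh1 did not go with these genes, at r = 0.04 to Cat, -0.08 to Adh5 and -0.22 to Adh4. Cat kept r = 0.83 to Adh4 and 0.71 to Cyp2e1. These are descriptions, since all values of a library share its scaling. Among genes averaging 5 TPM or more, those most like each gene after group means were removed were Mapk3, Abhd14b and Tcea3 for Adh1 (r from 0.92 to 0.93) and Lasp1, Sgms2 and Fbxo21 for Adh4 (0.89 to 0.90). For Cat they were Dhdh, Dym and Lpcat3 (0.89 to 0.93), and for Adh5 Apool, Pdcd6 and Rmdn1 (0.85 to 0.87). The closest to Cyp2e1 were Gstz1, Pfkfb1 and Sf3b2 (0.68 to 0.71), a looser likeness than for the other genes, and to Adh7 Slc37a1, Litaf and Fgb (0.82 to 0.84). Over all differences between libraries, group means included, the closest were Inmt to Adh1 (0.95), Sdr9c7 to Adh4 (0.94) and Dhdh to Cat (0.92).

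The genes around these enzymes in the same pathways were counted from lists. By diet label 17.3%, 14.3% and 8.82% of all genes were called higher at peak, early and late resolution. The shares called lower were 9.81%, 2.46% and 3.98%. Of 6 tested genes for the acetaldehyde and acetate steps, 2 were higher and 1 lower in ethanol-labelled libraries at peak (median 0.14 against 0.05 over all genes). The mitochondrial Aldh1b1 was higher at peak (0.94 ± 0.25, SE, limma adjusted p = 0.0041), early (1.10 ± 0.26, SE, adjusted p = 0.0027) and late resolution (0.80 ± 0.27, SE, adjusted p = 0.041). The cytosolic retinaldehyde dehydrogenase gene Aldh1a1 was lower at all 3, by -1.04, -0.77 and -0.84. Aldh2, the main acetaldehyde dehydrogenase of mitochondria, was at 0.10 ± 0.10 (SE, limma adjusted p = 0.53) at peak and was called at early resolution (0.35 ± 0.11, SE, adjusted p = 0.022).

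Alcohol oxidation yields NADH, which shuttles carry into mitochondria. Of 9 shuttle and lactate genes Gpd2, the mitochondrial glycerol phosphate dehydrogenase, was higher (0.52 ± 0.20, SE, limma adjusted p = 0.048) and Gpd1, its cytosolic partner, lower (-0.90 ± 0.18, SE, adjusted p = 0.00030) at peak. None of the 9 was called at early or late resolution. Of 4 genes listed for electron transfer through P450 reductase and cytochrome b5, 0 were called at peak by limma. Por, the P450 reductase, had an unadjusted p of 0.021 (0.32 ± 0.13, SE). At early resolution 2 were higher, Por (0.68 ± 0.14, SE, limma adjusted p = 0.00074) and Cyb5a, cytochrome b5 (0.57 ± 0.14, SE, adjusted p = 0.0047), and the same 2 at late resolution (0.42 ± 0.15 and 0.55 ± 0.15, SE, adjusted p = 0.048 and 0.011). Cyp2e1, whose enzyme receives electrons from P450 reductase, was not called at either of those stages as deposited.

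Among the peroxisomal genes Hao1, whose product glycolate oxidase makes hydrogen peroxide, was lower in ethanol-labelled libraries at peak (-1.14 ± 0.12, SE, limma adjusted p = 6.3e-09), early (-0.92, adjusted p = 2.0e-06) and late resolution (-0.81, adjusted p = 4.4e-05). Of 4 genes that handle formaldehyde and glutathione beside Adh5, only Esd, which hydrolyses the product of the Adh5 enzyme, was called by diet label at peak (-0.41 ± 0.11, SE, limma adjusted p = 0.0056). By sex label all 4 were lower in male-labelled libraries at peak as deposited (median -0.81 against -0.29 over all genes), with Gclc, a subunit of glutamate-cysteine ligase, at -1.76 ± 0.21 (SE, limma adjusted p = 4.7e-07). Of all genes 46.7% were called lower in that comparison.

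Position in the liver lobule was looked at through 2 lists. By diet label at peak 9.81% of all genes were called lower and 17.3% higher. Of 10 pericentral genes, which share the zone of Cyp2e1, 3 were lower and 1 higher at peak in ethanol-labelled libraries (median -0.15). The lower ones were Cyp1a2 (-0.48 ± 0.17, SE, limma adjusted p = 0.028), Cyp27a1 (-0.42 ± 0.10, SE, adjusted p = 0.0017) and Slc1a2 (-0.38 ± 0.14, SE, adjusted p = 0.041), and the higher one was Glul, the glutamine synthetase of the innermost cells (0.31 ± 0.10, SE, adjusted p = 0.019). None of the 10 was called at early or late resolution. Of 9 periportal genes 1 was lower, the P450 gene Cyp2f2 (-0.93 ± 0.15, SE, limma adjusted p = 1.1e-05). By sex label 6 of the 10 pericentral genes and 5 of the 9 periportal ones were lower in male-labelled libraries as deposited, with 2 of the 9 higher, with medians of -0.65 and -0.49 against -0.29 over all genes. Of all genes 46.7% were called lower and 4.26% higher there, so these counts of lower genes lay near the share over all genes. Among transcription regulators of liver genes Hnf4a was higher by diet label at peak (0.59 ± 0.13, SE, limma adjusted p = 0.00059), and the bile acid receptor gene Nr1h4 was lower (-0.42 ± 0.09, SE, adjusted p = 0.00078).

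Some markers of other liver cells differed by diet label as well. All marker counts are as deposited, where 17.3% of all genes were called higher at peak. At peak 6 of 6 endothelial markers, 4 of 6 stellate cell markers, 1 of 6 Kupffer cell markers, 1 of 2 tested cholangiocyte markers and 0 of 5 leukocyte markers were higher in ethanol-labelled libraries. Their summed level for endothelium was 46.7 to 179 TPM with control labels (median 102) and 73.9 to 242 TPM with ethanol labels (median 179). Of 6 hepatocyte markers 1 was lower, and their sum was 123203 to 161993 TPM (median 143645) against 140024 to 184892 TPM (median 157921). Of 2 tested markers of pancreatic acinar cells Cela1 was lower, while Prss2 and Cpa1 stayed under 0.1 TPM at every stage. At early and at late resolution 5 of 6 Kupffer cell markers were higher, where 14.3% and 8.82% of all genes were. By sex label at peak 5 of 6 endothelial markers were lower in male-labelled libraries as deposited, where 46.7% of all genes were. The part of cell composition in the differences of the 6 enzymes was not tested.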

How the data were processed

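Liver RNA libraries were prepared with a stranded poly(A) kit, per the labels' protocols. The authors deposited 1 table of TPM values for 24946 usable genes in 45 libraries, built on mm10 per the submitters' processing notes. No source used here names the aligner, the counter or its use of strand. Column totals lay between 999999 and 1000001, and 15093 to 16402 genes per library were above 0. TPM keeps no depth, so no counting interval can be given. Another 26 entries whose names had been turned into dates, 0.0441% of TPM, were left out. Columns were matched to samples by their names and groups were taken from the labels.

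Values were tested as log2(TPM + 0.5) for 11244 genes averaging 0.5 TPM or more, with limma 3.58.1 in R 4.3.3, 1 mean per group over all 45 libraries (33 residual degrees of freedom), moderated variances with a trend, and Benjamini-Hochberg adjustment. The code was tested on simulated data. Ratios used exact permutation tests in Python 3.11.15 with scipy 1.17.1. Alternatives were other pseudocounts, filters and scalings, array weights, fits of 1 stage, a replicate block and leaving out each library.

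The text names the 6 genes in every comparison, up to 4 genes of each pathway list with the smallest p by diet label at peak, and the 3 most alike genes over libraries and after group means were removed. Values of a few listed genes, and the counts that rest on them, are not reported here. The members and lists were chosen with earlier results of these data known. The change of the sex-label difference between stages, and the alternatives of stage differences and of sex-label differences within a diet label, were chosen after seeing the data.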

Additional observations from a re-analysis of the deposited data

Results flagged for a closer look

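Of 54 sets of 4 libraries (6 genes in 9 groups), 3 held a library far from the others of its group, where chance flags about 1 in 20. Adh7 stood at 1.79 TPM in late control female 4, above 1.11 to 1.17 TPM in the other libraries of that group. Cat stood at 1133 TPM in early ethanol male 2, below 1626 to 1703 TPM in the others, and at 2334 TPM in peak control female 1, above 1667 to 1750 TPM.

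Several differences changed between stages by the test of the change itself. The sex-label difference moved from peak to early resolution by 0.65 for Adh1, 1.04 for Adh4 and 0.73 for Cat on the log2 scale, and from peak to late resolution by 1.33 for Adh4 and 0.55 for Cat. These comparisons were added after the data were seen. The diet-label difference of Adh7 moved by -0.58 from peak to late resolution. All 6 changes share the peak libraries, whose scaling factors split by sex label. After median-of-ratios scaling only the Adh4 change from peak to late resolution kept its call (0.93, limma adjusted p = 0.0087). Of all genes 31.9% and 36.5% were called for the sex-label changes to early and late resolution. For the diet-label change from peak to late resolution the share was 3.98%.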

How the results depend on the processing

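Depth is unknown in TPM, Adh7 lies near the low end of what was measured, and groups hold 3 or 4 libraries, which limits the precision of each difference. The diet-label differences of Adh1 at all 3 stages and of Adh4 and Cat at peak kept their direction and their limma call under every alternative run for them, while the Adh1 ratio lost its later calls with Alb as the denominator. Leaving single libraries aside, 349 values of the main comparisons kept their direction and side of the threshold under an alternative, counts of genes within 1.5 times included. Another 17 values changed direction, 16 gained a call, 8 lost one, and 24 counts of genes moved further than 1.5 times. The cause of the changes below was not tested.

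With a pseudocount of 0.1 the sex-label difference of Adh7 at peak was 0.32 (limma adjusted p = 0.063). With 2 it was 0.00044 at early resolution, and its change from peak to late resolution -0.027. With no filter the calls of Adh5 by diet label (-0.23, adjusted p = 0.051) and Adh7 by sex label (0.27, adjusted p = 0.064) at peak were lost. With a mean of at least 5 TPM fewer genes were tested, and genes called numbered 1617 and 3213 by diet and sex label at peak, 1075 by diet label at early and 914 and 218 by diet and sex label at late resolution (against 3049, 5729, 1880, 1440 and 365).

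After median-of-ratios scaling the diet-label differences were 0.36 for Adh7 at peak, -0.16 for Cyp2e1 and -0.35 for Cat at early, and -0.67 for Adh4, -0.0019 for Cyp2e1 and -0.32 for Cat at late resolution. The sex-label differences were 0.38 for Adh5, 0.14 for Cyp2e1 (0.058 in control-labelled and 0.22 in ethanol-labelled libraries) and -0.20 for Cat at peak, -0.016 for Adh1 at early, and -0.35 for Adh1, -0.0020 for Adh5 and -0.056 for Cat at late resolution. Interactions turned to 0.22 for Adh5 and 0.16 for Cyp2e1 at peak, and for Adh5 to -0.047 at early and 0.10 at late resolution. The change of the sex-label difference from peak turned at early resolution to -0.29 for Adh5 and -0.094 for Cyp2e1, and at late resolution to -0.064 for Adh1, -0.38 for Adh5, -0.32 for Adh7 and -0.14 for Cyp2e1. Control-labelled libraries at late resolution against peak turned to -0.15 for Adh5 and -0.14 for Cat. The genes called by sex label were 3553, 206 and 1074 at the 3 stages and by diet label 2374 at late resolution (against 5729, 67, 365 and 1440).

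With quantile normalization the diet-label differences were 0.34 for Adh7 and -0.084 for Cyp2e1 at peak, -0.22 for Adh5 and 0.51 for Cyp2e1 at early and -0.72 for Adh4 at late resolution. By sex label they were 0.17 for Adh5 and -0.50 for Cyp2e1 at peak, -0.0016 for Adh4 at early and -0.11 for Cat at late resolution, and genes called were 3356, 243 and 1212 by sex label and 2420 by diet label at late resolution. Rescaled without Mup genes, Cyp2e1 by diet label was -0.13 at early and -0.034 at late resolution, Adh4 by diet label -0.70 at late and Adh1 by sex label -0.023 at early resolution, and genes called by diet label at early resolution were 1116.

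With array weights the sex-label differences were -0.0073 for Adh5 and -0.21 for Cyp2e1 at peak (adjusted p = 0.027), -0.072 for Adh1 at early and -0.34 for Adh1 at late resolution. The diet-label differences were 0.044 for Adh5 at early, and -0.82 for Adh4, -0.072 for Cyp2e1 and -0.34 for Cat at late resolution. Genes called were 3808 by diet and 1689 by sex label at early, and 3286 and 3226 at late resolution. With the libraries of 1 stage alone Cyp2e1 by sex label at peak was -0.21 (adjusted p = 0.042), and genes called were 9 by sex label at early and 727 by diet and 75 by sex label at late resolution. With Alb in place of Adh5 as the denominator, the Cyp2e1 ratio turned to -0.68 at early and -0.55 at late resolution, the Adh1 ratio was not called at early (0.087) or late resolution (0.033), nor Adh7 at peak (0.25). Calls were gained for Adh7 (-0.80 and -0.91), Cat (-0.85, -0.87 and -0.87), Cyp2e1 at peak (-0.63) and Adh4 at late resolution (-1.22).

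The labels number replicates within groups, and libraries of the same number did not deviate together as a whole (21 pairs over diet labels, r from -0.371 to 0.25, with 7 closest to their own number, and 22 over sex labels, r from -0.433 to 0.527, with 6). In peak females all 4 pairs over diet labels did (r = 0.222, 0.171, 0.147 and 0.109, each closest to its own number), and in early males 3 of 4 (0.210, 0.151 and 0.250). With the replicate block, chosen for peak females after seeing the data, none of the 6 genes was called there (limma adjusted p from 0.10 to 0.55, with Adh1, Adh4, Cyp2e1 and Cat at an unadjusted p under 0.05). In this fit 3 libraries without a partner were left out over diet labels and 1 over sex labels. Adh5 by diet label was then 0.038 at early resolution and Adh7 by sex label 0.27 (adjusted p = 0.071) at peak, and genes called were 580 by diet label at late and 26 and 128 by sex label at early and late resolution.

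Leaving out 1 library at a time moved the diet-label differences of Adh4 between -0.90 and -0.53 at early and -0.75 and -0.46 at late resolution, and of Adh5 between -0.27 and -0.19, -0.068 and 0.038, and -0.090 and 0.0092 at the 3 stages. At early resolution Adh7 by diet label lay between -0.14 and 0.025 and Cyp2e1 between -0.026 and 0.089. The sex-label differences at peak lay between -0.0074 and 0.069 for Adh5, 0.22 and 0.32 for Adh7 and -0.25 and -0.17 for Cyp2e1, which was called without peak ethanol female 3 or peak control male 4. At early resolution they lay between -0.088 and 0.079 for Adh1, -0.15 and 0.21 for Adh4 and -0.095 and 0.066 for Adh7, and at late resolution between -0.083 and 0.059 for Cat and -0.039 and 0.12 for Cyp2e1. Without late control female 1 the change of the Adh7 sex-label difference from peak was -0.0099 and its stage difference in control-labelled libraries 0.0060. Genes called by diet label at early resolution ran from 1123 without early ethanol female 2 to 3016 without early ethanol female 1, by sex label from 16 to 206 at early and 25 to 1853 at late resolution, and by diet label from 966 to 2098 at late resolution.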
